A study of Homo sapiens with 31 samples.

Results

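The 9 transcripts described here encode core components of the mTOR signalling pathway: MTOR (ENST00000361445), DEPTOR (ENST00000286234), RPTOR (ENST00000306801), RICTOR (ENST00000357387), TSC1 (ENST00000298552), TSC2 (ENST00000219476), RHEB (ENST00000262187), AKT1 (ENST00000349310) and RPS6KB1 (ENST00000225577). They were found by their Ensembl transcript identifiers, and each was kept only because the length listed for its counted region, in codons, matched the known length of the protein less 9 residues. All 9 matched with a difference of 0, from 175 codons for RHEB to 2540 codons for MTOR. They are 9 of 35500 transcripts after 1 transcript per locus was kept, and the symbols come from this rule, since the files give identifiers only. The counts of TSC1 were identical to those of 3 other listed transcripts and those of AKT1 to 6, so their values belong to those transcripts as a set. RHEB has 3 pseudogenes in RefSeq, with which its reads could be shared, and its levels are uncertain for that reason.

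The mTOR kinase works in 2 complexes. RPTOR (raptor) is the scaffold of complex 1, which promotes translation, and RICTOR is the scaffold of complex 2, which phosphorylates AKT1; MTOR and its inhibitor DEPTOR are in both. Growth factor signals reach complex 1 through AKT1, which inhibits the TSC1-TSC2 complex, the GTPase-activating brake on RHEB, and RHEB bound to GTP activates the kinase. RPS6KB1 encodes S6 kinase, a substrate of complex 1. PP242 inhibits the kinase at its ATP site and thus acts on both complexes. The eIF4A proteins are RNA helicases of translation initiation, and LARP1 is an RNA-binding protein downstream of complex 1 that binds mRNAs with a terminal oligopyrimidine (TOP) start.

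All 31 libraries came from HEK293 T-REx cells, which derive from human embryonic kidney and carry a tetracycline repressor for inducible expression. Ribosome profiling, which sequences the mRNA fragments covered by ribosomes (footprints), was done in naive, EIF4A1 KO and EIF4A2 KO cells, with 2 DMSO libraries of each genotype and 1 library each at 1 and 10 µM PP242, given for 30 min. RNA-seq was done in naive and EIF4A1 KO cells, 2 libraries each. RNA bound to a helicase carrying a streptavidin-binding peptide was captured from SBP-eIF4A1 and from SBP-eIF4A2 cells, 2 pulldown and 2 input libraries each. A further capture from SBP-eIF4A1 cells followed 72 h of siRNA: control siRNA (siControl) had 2 inputs and 2 pulldowns, and LARP1 siRNA (siLARP1) had 2 inputs and 1 pulldown.

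Summed over the 35500 transcripts kept, counts per library were 2515174 to 6420626 for footprints, 19708141 to 21632558 for RNA-seq and 11891212 to 17644206 for the capture libraries. Replicates differed by more than counting noise in every group with 2 libraries, with a chi-square per degree of freedom of 1.32 to 2.20 in most of them, 6.87 for the SBP-eIF4A2 pulldown and 7.13 to 14.9 in the siRNA experiment. The labels do not say whether replicates are separate cultures or whether a knockout line is 1 clone, so p-values measure the spread between these libraries only. The EIF4A2 KO footprint, SBP-eIF4A2 capture and RNA-seq libraries are listed as a run of samples apart from the others. The labels do not say whether they were made at another time. A batch could therefore not be told apart from the paralog, or from the assay, in comparisons across these sets. No pulldown from untagged cells was analysed here. EIF4A1, EIF4A2 and LARP1 levels, cell markers and the other genes of the mTOR pathway were not analysed here either, so genotype, knockdown and cell identity rest on the labels. In bulk libraries fewer expressing cells and less RNA per cell cannot be told apart, and all changes are relative within a library. Where groups of 2 libraries are said not to overlap, this is description only. How many of all transcripts were separated in the same way was not counted.

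Since LARP1 binds TOP starts, the annotated transcription start of MTOR, of RPTOR and of TSC2, the transcripts on which the drug and siRNA results turn, is shown for reference. The 10 bases before the start are in lower case and the first 10 transcribed bases in capitals, from the RefSeq promoter table of GRCh38.p14. TSC2 has 2 annotated starts.
MTOR, chr1:11262542-11262561, minus strand: tccttccctcGCTCCCGGCT
RPTOR, chr17:80544828-80544847, plus strand: tgcattctggGTCCTGGCAA
TSC2, first start, chr16:2047975-2047994, plus strand: tgcgggtcgcGCTTCCGGCG
TSC2, second start, chr16:2048192-2048211, plus strand: agcatcccttAGTTTTAAGT
A start was called TOP-like where its first base was C and each of the next 4 bases was C or T, read on the transcribed strand only. Of the 10 annotated starts examined for 8 of the members, 0 were TOP-like, against 4.07% of 35093 starts in the table. DEPTOR was left out of this count. Within 5 bases on either side of the annotated start, such a run was present for MTOR and for both starts of TSC2, which is 3 of 10 starts against 21.1% in the table. These matches describe letters in the reference and not the starts used in these cells.

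In naive cells the smallest member, RHEB, had the highest mRNA density and the scaffolds were among the lowest. Levels between transcripts are given as CPM (counts scaled by library size) per 1000 codons. RHEB mRNA was at 553 and 551 in the 2 naive libraries and AKT1 mRNA at 394 and 424. RPS6KB1 followed at 140.1 and 134, and MTOR at 74.5 and 75.7. RICTOR, TSC2, TSC1, DEPTOR and RPTOR all lay between 19.7 and 33.8. The order held in both libraries down to RICTOR, while the ranges of TSC2 and TSC1 overlapped, as did those of DEPTOR and RPTOR.

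Footprints of the naive DMSO libraries followed another order, in which AKT1 dropped below RPS6KB1. RHEB footprint density was 698 and 604, RPS6KB1 115 and 83.3, AKT1 61.4 and 70.1, and MTOR 49.6 and 47.3. The log2 ratio of footprints to mRNA, each scaled within its assay, was -2.62 for AKT1 (SE 0.079), which placed it at percentile 4.04 of 25459 transcripts. The median over those transcripts was -0.09. TSC1 was at -0.93 (percentile 22.2), DEPTOR at -0.63, MTOR at -0.63, RPS6KB1 at -0.47 and RICTOR at -0.05. RPTOR had the highest ratio of the 9 at 0.46 (percentile 71.6), above RHEB at 0.24 and TSC2 at 0.23. The components of the brake differed in this ratio, since the densities of TSC2 and TSC1 stood at ratios of 0.96 and 1.10 in naive mRNA and of 2.05 and 2.51 in naive footprints.

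**Figure D1:**
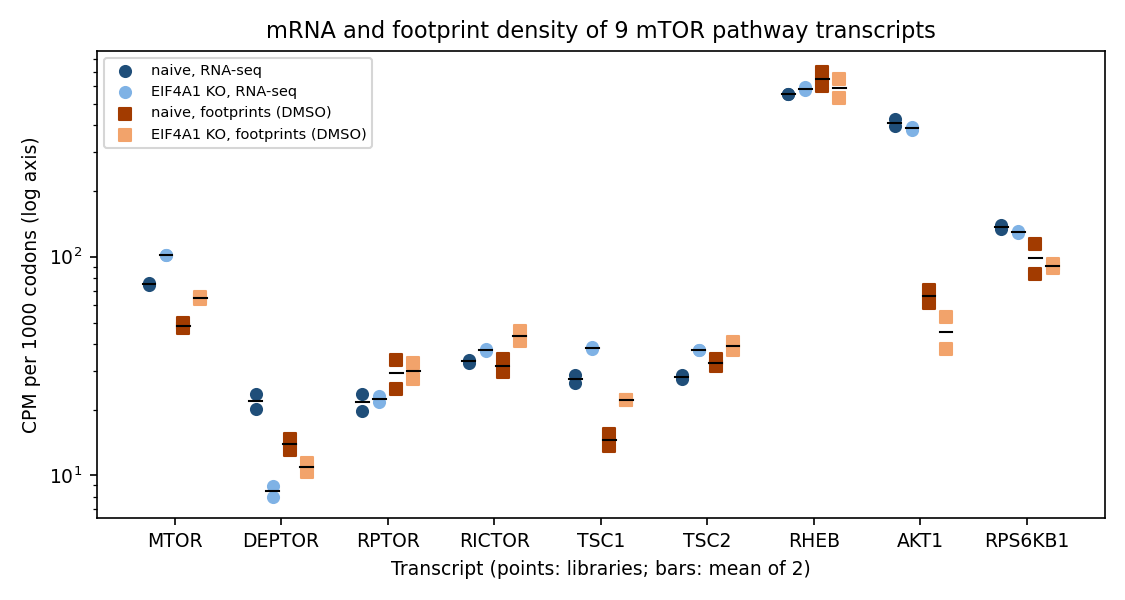
Density of the 9 transcripts in CPM per 1000 codons (log axis) in RNA-seq and in DMSO footprints of naive and EIF4A1 KO cells; points are libraries and bars are means of 2 libraries. AKT1 stands between 380.1 and 424 in RNA-seq and between 37.9 and 70.1 in footprints, and DEPTOR mRNA is lower in both EIF4A1 KO libraries.

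RNA-seq set EIF4A1 KO against naive cells at the level of mRNA. In the knockout the mRNAs of MTOR, TSC1, TSC2 and RICTOR rose and that of DEPTOR fell, so 5 of the 9 passed the test (edgeR quasi-likelihood, adjusted p under 0.05), where 36.5% of 25745 transcripts did (18.1% higher and 18.4% lower). DEPTOR, the inhibitor that binds the kinase, had 174 and 190 counts in naive cells and 73 and 63 in knockout cells. Its level was 8.06 and 9.41 CPM in naive libraries and 3.60 and 3.20 CPM in knockout libraries, well apart, and it fell by 1.36 on the log2 scale (SE 0.16, edgeR adjusted p = 3.3e-08), a 2.56-fold lower level. MTOR mRNA was at 189 and 192 CPM in naive cells and at 258 in both knockout libraries, a rise of 0.44 (SE 0.037, edgeR adjusted p = 2.6e-11). The kinase and its inhibitor thus changed in opposite directions.

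Both components of the brake rose together in the knockout. TSC1, the stabilising subunit, went from 33.4 and 30.4 CPM to 43.6 and 44.4 CPM (log2 change 0.46, SE 0.068, edgeR adjusted p = 1.5e-06). TSC2, the catalytic subunit, went from 49.7 and 52.0 CPM to 67.3 and 67.1 CPM (0.40, SE 0.055, edgeR adjusted p = 5.0e-07). Neither pair of groups overlapped. RICTOR rose by 0.17 (SE 0.055, edgeR adjusted p = 0.015), from 57.4 and 55.5 to 62.9 and 64.0 CPM. The RICTOR call was lost with DESeq2's Wald test (adjusted p = 0.12) and without naive replicate 2 or either knockout replicate. RPTOR, RHEB, AKT1 and RPS6KB1 did not pass, with log2 changes of 0.05, 0.08, -0.08 and -0.08. AKT1 passed at -0.13 without naive replicate 1. The median change of the 9 was 0.08, against -0.0025 over all transcripts tested.

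At the footprint level in DMSO, MTOR, RICTOR and TSC1 had a higher share of the footprints in EIF4A1 KO cells, and AKT1 a lower share. These 4 of 9 passed, where 22.7% of 19845 transcripts did. MTOR footprints were at 126 and 120.2 CPM in naive cells and 165 and 162 CPM in the knockout (log2 change 0.41, SE 0.084, edgeR adjusted p = 4.1e-05). RICTOR was at 50.2 and 57.8 CPM in naive cells and 77.9 and 70.0 CPM in the knockout (0.45, SE 0.12, edgeR adjusted p = 0.0015). TSC1 was at 17.8 and 15.7 CPM and then at 25.5 and 25.7 CPM (0.61, SE 0.18, edgeR adjusted p = 0.0079). None of these groups overlapped, which is description only, since the share over all transcripts was not counted.

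AKT1 footprints were at 28.9 and 33.0 CPM in naive cells and at 17.9 and 24.8 CPM in the knockout, a fall of 0.55 on the log2 scale (SE 0.17, edgeR adjusted p = 0.011). These AKT1 values rest on 149 and 196 counts in naive cells and only 47 and 60 in the knockout. TSC1 had 67 and 62 counts in the knockout. TSC2 footprints were at 56.8 and 61.2 CPM in naive cells and 73.0 and 67.5 CPM in the knockout (0.25, edgeR adjusted p = 0.0997). DEPTOR had only 27 and 35 footprints in naive cells and 12 and 10 in the knockout, and its interval ran from -1.08 to 0.37. RPTOR, RHEB and RPS6KB1 changed by 0.03, -0.14 and -0.12 and did not pass. With DESeq2's Wald test the TSC1 and AKT1 calls were lost (adjusted p = 0.071 and 0.098). The AKT1 change was -0.33 without EIF4A1 KO replicate 1 and -0.45 without naive replicate 2, and the call was lost in both cases. The TSC1 call was lost without naive replicate 2 or either EIF4A1 KO replicate, and the RICTOR call without EIF4A1 KO replicate 1.

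Translation efficiency, the footprint change beyond the mRNA change of the same genotypes, was tested with an interaction term. With edgeR 0 of the 9 passed, where 9.48% of 25459 transcripts did, while 4 had an unadjusted p under 0.05 and DESeq2 called 0 of the 8 to which it gave an adjusted p. Those 4 were AKT1 (-0.48, interval -0.82 to -0.14, edgeR adjusted p = 0.057), DEPTOR (0.99, interval 0.16 to 1.81, adjusted p = 0.13), RICTOR (0.27, adjusted p = 0.18) and RHEB (-0.23, adjusted p = 0.17). AKT1 passed without naive footprint replicate 1, EIF4A1 KO footprint replicate 2 or naive RNA replicate 2, with values of -0.62, -0.77 and -0.53. RHEB passed without naive footprint replicate 2 (-0.39) or EIF4A1 KO footprint replicate 2 (-0.43). For MTOR the efficiency change was -0.03, with an interval of -0.20 to 0.14, so the footprint rise of the kinase was of about the size of its mRNA rise.

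In EIF4A2 KO cells none of the 9 footprint levels passed the threshold against naive cells. With edgeR 0 of 9 passed, where 8.04% of 19845 transcripts did; 1 had an unadjusted p under 0.05 and DESeq2 called 0 of the 8 with an adjusted p. That transcript was AKT1, at 38.7 and 39.7 CPM in EIF4A2 KO against 28.9 and 33.0 CPM in naive cells (0.34, interval 0.08 to 0.59, edgeR adjusted p = 0.091). The groups did not overlap, and the direction was opposite to that in EIF4A1 KO cells. The EIF4A2 KO libraries belong to the separate run of samples, so genotype and batch cannot be told apart in these comparisons. Set directly against each other, the knockouts differed in 4 of 9 members, where 22.6% of the transcripts did. AKT1 footprints were lower with EIF4A1 than with EIF4A2 knocked out, by 0.89 on the log2 scale (-0.89, SE 0.17, edgeR adjusted p = 9.3e-06), the largest of the 9 differences in this contrast. MTOR was higher in EIF4A1 KO cells (0.38, edgeR adjusted p = 0.00019), as was RICTOR (0.32, adjusted p = 0.029), and RHEB was lower (-0.28, adjusted p = 0.019). The calls for RICTOR and RHEB were lost with DESeq2 (adjusted p = 0.15 for each) and without EIF4A1 KO replicate 1. RICTOR was also lost with no filter on low counts (adjusted p = 0.072) and without EIF4A2 KO replicate 2 (0.27), RHEB without EIF4A2 KO replicate 1 (-0.24), and RHEB moved to -0.14 without EIF4A1 KO replicate 1.

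**Figure D2:**
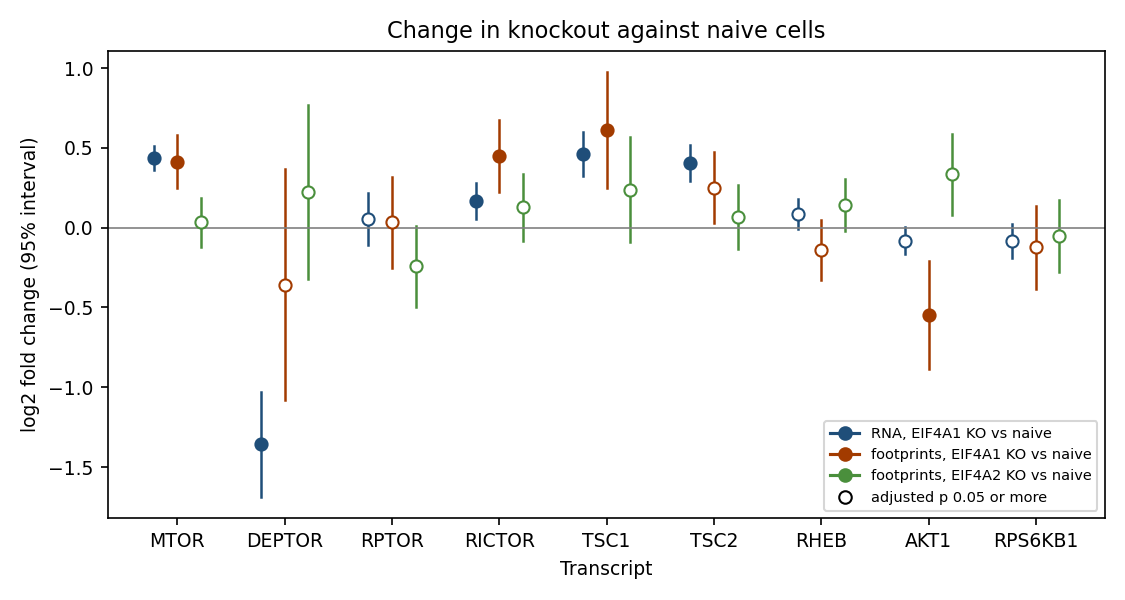
Log2 change against naive cells for mRNA in EIF4A1 KO and for DMSO footprints in EIF4A1 KO and EIF4A2 KO cells, with 95% intervals; open points did not reach an edgeR adjusted p under 0.05. MTOR and TSC1 are above 0 in both EIF4A1 KO assays, DEPTOR mRNA is at -1.36, and AKT1 footprints lie on opposite sides of 0 in the 2 knockouts.

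PP242 was compared with DMSO at the footprint level, taking both doses of a genotype together, since each dose had 1 library. After 30 min of the inhibitor, footprints of RPTOR were higher and footprints of TSC2 lower, averaged over the 3 genotypes, and the other 7 members did not pass. Of 20506 transcripts 16.0% passed in this average. RPTOR, the scaffold of complex 1, rose by 0.34 (SE 0.076, edgeR adjusted p = 0.00060), and TSC2 fell by 0.36 on the log2 scale (SE 0.068, edgeR adjusted p = 3.7e-05). Both calls held in each of the 12 fits without 1 library. They were lost when a slope over a dose score of 0, 1 and 2 replaced the grouping (edgeR adjusted p = 0.060 and 0.090). The slopes, 0.18 and -0.16, are changes per step of that score and not against DMSO as a whole. RHEB, the target of the brake, was at 0.11 (adjusted p = 0.13) and passed without EIF4A1 KO DMSO replicate 2 (0.17). The substrate kinase RPS6KB1 was at 0.09, AKT1 at 0.08, TSC1 at 0.03, MTOR at -0.08 and RICTOR at -0.09. DEPTOR was at -0.39, with an interval of -0.79 to 0.01 that rests on 10 to 37 footprints per library.

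The RPTOR rise was found in naive and EIF4A2 KO cells. In naive cells RPTOR was at 33.0 and 44.7 CPM in DMSO, 52.3 CPM at 1 µM and 50.8 CPM at 10 µM (0.40, SE 0.13, edgeR adjusted p = 0.030), and it was the only one of the 9 to pass, where 9.38% of transcripts did. In EIF4A2 KO cells it was at 36.2 and 30.1 CPM in DMSO, 49.7 CPM at 1 µM and 50.03 CPM at 10 µM (0.59, SE 0.13, edgeR adjusted p = 0.00035). PP242 libraries lay above both DMSO libraries in these genotypes. So did those of TSC1 and RHEB in naive cells and of RPS6KB1 in EIF4A2 KO cells, none of which passed. How many of all transcripts were separated upward was not counted. In EIF4A1 KO cells RPTOR was at 43.3 and 36.4 CPM in DMSO and at 40.0 and 40.9 CPM with the drug, so the groups overlapped and the change was 0.02 (interval -0.27 to 0.30). The naive call was lost with DESeq2 (adjusted p = 0.092), without naive DMSO replicate 1 (0.21) and without either PP242 library. The EIF4A2 KO call was lost at an adjusted p of 0.0501 without DMSO replicate 2 (0.46).

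TSC2 was below DMSO in the PP242 libraries of all 3 genotypes. Naive cells had 56.8 and 61.2 CPM in DMSO, 41.6 CPM at 1 µM and 54.1 CPM at 10 µM, a change of -0.33 (edgeR adjusted p = 0.067) that passed without the 10 µM library (-0.51). In EIF4A1 KO cells the values were 73.0 and 67.5 CPM in DMSO, 57.4 CPM at 1 µM and 52.2 CPM at 10 µM, a change of -0.37 (adjusted p = 0.051), which passed without any 1 of the 4 PP242 libraries of the other genotypes (adjusted p = 0.043). EIF4A2 KO cells had 62.1 and 61.7 CPM in DMSO, 42.1 CPM at 1 µM and 52.9 CPM at 10 µM, and here TSC2 fell by 0.38 on the log2 scale (edgeR adjusted p = 0.017). RPTOR and TSC2 were the 2 of 9 that passed in EIF4A2 KO cells, where 11.7% of transcripts did. The TSC2 call in EIF4A2 KO cells was lost with DESeq2 (adjusted p = 0.078), without either DMSO replicate (-0.37 and -0.38) and without the 1 µM library (-0.23).

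In EIF4A1 KO cells 0 of the 9 passed with edgeR, where 6.02% of transcripts did; 3 had an unadjusted p under 0.05, and DESeq2 called 0 of the 8 with an adjusted p. Besides TSC2 these were RICTOR and MTOR. RICTOR, the scaffold of complex 2, was at 77.9 and 70.0 CPM in DMSO, 56.2 CPM at 1 µM and 60.5 CPM at 10 µM (-0.34, interval -0.56 to -0.11, edgeR adjusted p = 0.062). MTOR was at 165 and 162 CPM in DMSO and at 151 and 136 CPM with the drug (-0.20, adjusted p = 0.18). The drug libraries of both transcripts lay below the DMSO libraries in this genotype, as did those of TSC2, TSC1 and DEPTOR. This was not particular to the genotype, since MTOR lay below DMSO in naive cells too and RICTOR in EIF4A2 KO cells. The share of all transcripts separated in this way was not counted. The density ratio of RPTOR to RICTOR, the scaffolds of the 2 complexes, was 0.84 and 0.99 in naive DMSO and 1.06 and 1.17 in naive PP242 libraries. It was 0.75 and 0.68 against 1.14 and 1.15 in EIF4A2 KO cells, and 0.71 and 0.67 against 0.91 and 0.87 in EIF4A1 KO cells. The ratio was higher with the drug in every genotype and was not tested. In EIF4A1 KO cells RPTOR itself changed by 0.02 and RICTOR by -0.34. Other ratios moved too: that of RHEB to TSC2 was higher with the drug in every genotype. The ratio of TSC2 to TSC1 was lower with it in naive and EIF4A2 KO cells and overlapped in EIF4A1 KO cells.

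**Figure D3:**
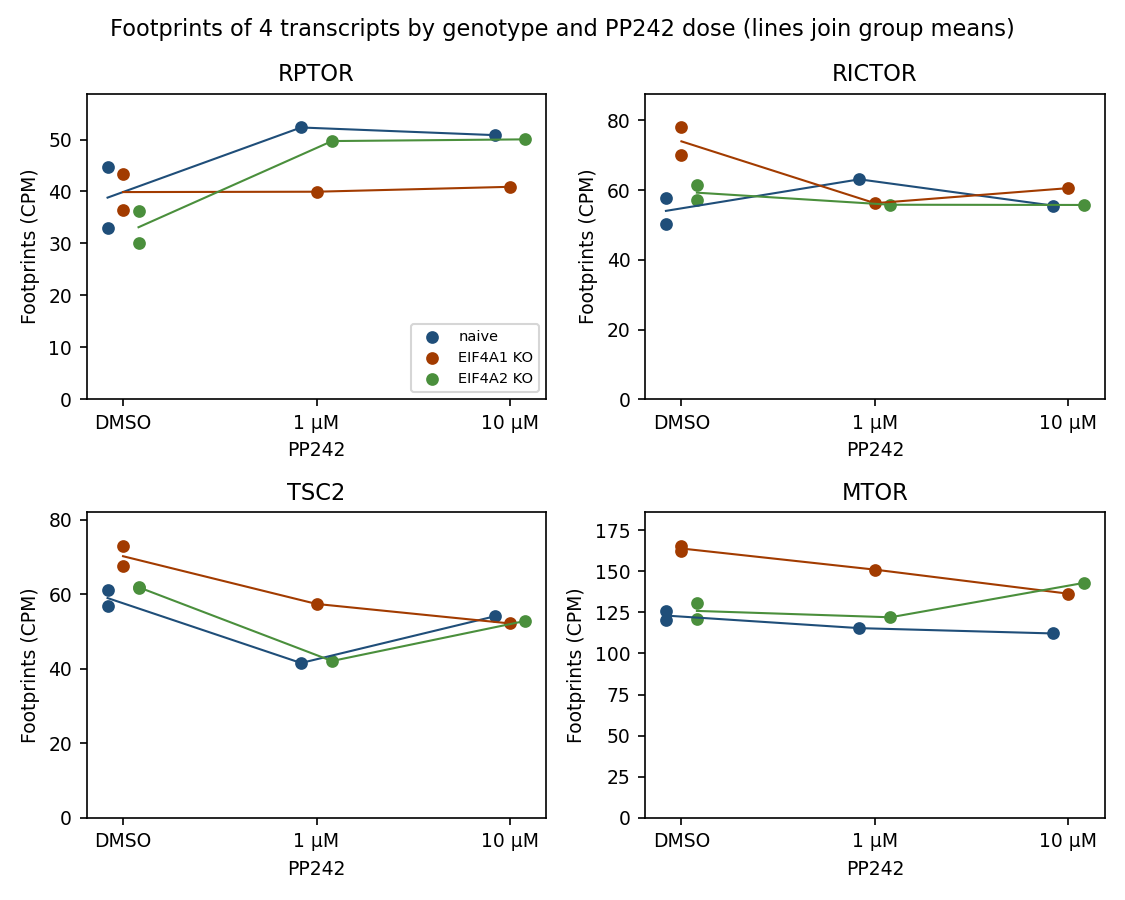
Footprints in CPM of RPTOR, RICTOR, TSC2 and MTOR in DMSO and at 1 and 10 µM PP242 in naive, EIF4A1 KO and EIF4A2 KO cells; each point is 1 library and lines join group means. RPTOR is higher with the drug in naive and EIF4A2 KO cells, and TSC2 is lower with it in all 3 genotypes. RICTOR is lower with it in EIF4A1 KO and EIF4A2 KO cells, and MTOR in EIF4A1 KO and naive cells. None of these changes of RICTOR and MTOR passed.

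The differences in drug response between genotypes did not pass for any of the 9. For EIF4A1 KO against naive cells edgeR called 0 of 9, where 6.06% of transcripts passed; 2 had an unadjusted p under 0.05, and DESeq2 called 0 of the 8 with an adjusted p. These were RICTOR (-0.48, interval -0.79 to -0.16, edgeR adjusted p = 0.056) and RPTOR (-0.39, adjusted p = 0.27). RICTOR passed without naive DMSO replicate 2 (-0.59) or without the naive 10 µM library (-0.55). For EIF4A1 KO against EIF4A2 KO cells edgeR also called 0 of 9, where 6.23% passed; 2 had an unadjusted p under 0.05, and DESeq2 called 0 of the 7 with an adjusted p. RPTOR differed by -0.58 (interval -0.96 to -0.19, edgeR adjusted p = 0.058) and MTOR by -0.28 (adjusted p = 0.17). RPTOR passed without either naive DMSO replicate (-0.58 in both) or without EIF4A2 KO DMSO replicate 1 (-0.71). For EIF4A2 KO against naive cells 0 of 9 passed and 0 had an unadjusted p under 0.05 with edgeR, where 0.0683% of transcripts passed. DESeq2 gave no adjusted p for any of the 9 in this difference and so bears on none of them. These 3 differences share the same DMSO and PP242 libraries.

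The doses could be compared only over the genotypes together. Between 10 and 1 µM edgeR called 0 of 9, where 0.00467% of 21425 transcripts passed; 1 had an unadjusted p under 0.05, and DESeq2 called 0. That transcript was TSC2, which was higher at 10 µM by 0.19 (interval 0.00 to 0.38, edgeR adjusted p = 0.88). RPTOR differed by 0.00, with an interval of -0.20 to 0.20.

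Capture with SBP-eIF4A1 asked which mRNAs came down with the helicase relative to the input lysate. Without siRNA, AKT1 and RHEB were enriched and the other 7 members depleted, so all 9 passed, where 55.4% of 26601 transcripts did (28.7% higher and 26.7% lower). AKT1 was at 282 and 287 CPM in the input and 631 and 644 CPM in the pulldown (log2 change 1.16, SE 0.052, edgeR adjusted p = 9.6e-12). RHEB was at 95.2 and 98.1 CPM in the input and 198 and 199 CPM in the pulldown (1.04, SE 0.058, edgeR adjusted p = 1.3e-10). The scaffold RICTOR was the most depleted of the 9, from 72.9 and 73.6 CPM to 21.9 and 21.1 CPM (-1.77, SE 0.12, edgeR adjusted p = 1.5e-09). MTOR was at 251 and 244 CPM and then at 77.9 and 86.8 CPM, a change of -1.59. DEPTOR, RPTOR, TSC1, TSC2 and RPS6KB1 changed by -1.04, -0.92, -0.61, -0.35 and -0.35. The median of the 9 was -0.61, against 0.04 over all transcripts tested.

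SBP-eIF4A2 gave the same order at both ends, with 7 of 9 past the threshold, where 59.8% of transcripts passed. AKT1 (1.28, edgeR adjusted p = 2.5e-12) and RHEB (0.71) were enriched, and RICTOR (-1.80), MTOR (-1.03), RPTOR (-0.98) and DEPTOR (-0.55) depleted. TSC2, depleted with SBP-eIF4A1, was enriched here, from 87.3 and 86.6 CPM in the input to 104 CPM in both pulldowns (0.26, SE 0.062, edgeR adjusted p = 0.0017). TSC1 (-0.16) and RPS6KB1 (-0.04) did not pass. The DEPTOR call was lost with DESeq2 (adjusted p = 0.068) and without input replicate 2 (-0.51), and TSC1 passed without pulldown replicate 1 (-0.22).

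The enrichment differed between the helicases for 5 of the 9, where 15.7% of transcripts differed. The captures of the helicases belong to different runs of samples, so helicase and batch cannot be told apart. SBP-eIF4A1 captured less TSC2 (-0.61, SE 0.093, edgeR adjusted p = 0.00025), MTOR (-0.56, adjusted p = 0.00022), TSC1 (-0.46, adjusted p = 0.013) and RPS6KB1 (-0.31, adjusted p = 0.039), and more RHEB (0.33, adjusted p = 0.011). The calls for TSC2 and MTOR held in all 8 fits without 1 library. Those for TSC1 and RPS6KB1 were each lost in 5 of the 8, RPS6KB1 was also lost with no filter on low counts (adjusted p = 0.064), and RHEB was lost without SBP-eIF4A1 input replicate 1 or SBP-eIF4A2 input replicate 2 (0.31 in both); DEPTOR (-0.49) passed without SBP-eIF4A2 pulldown replicate 1 (-0.67). The inputs differed too, for 4 of 9 members, where 18.5% of transcripts differed. In SBP-eIF4A1 input AKT1 was higher by 0.38, RPS6KB1 by 0.33 and RHEB by 0.21, and TSC2 was lower (-0.38, edgeR adjusted p = 0.00045). The RHEB call between inputs was lost without any 1 of the 4 inputs, that for RPS6KB1 without SBP-eIF4A1 input replicate 2 (0.28), and MTOR (-0.12) passed without either SBP-eIF4A2 pulldown and with only the inputs fitted (adjusted p = 0.017).

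In the siRNA experiment the capture by SBP-eIF4A1 was measured in other libraries. With control siRNA, TSC2, RPTOR, MTOR and AKT1 were enriched and DEPTOR depleted, which is 5 of 9, where 49.3% of 26708 transcripts passed. TSC2 was at 81.6 and 47.6 CPM in the inputs and 298 and 278 CPM in the pulldowns, a log2 change of 2.15 (SE 0.21, edgeR adjusted p = 2.1e-11). RPTOR was at 33.7 and 28.5 CPM in the inputs and 70.4 and 69.0 CPM in the pulldowns (1.16, edgeR adjusted p = 3.6e-06). MTOR went from 228 and 236 CPM to 471 and 522 CPM (1.10, edgeR adjusted p = 2.7e-06). No input overlapped its pulldown for these transcripts, and the inputs of TSC2 were themselves far apart.

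AKT1 was enriched by 0.85 (edgeR adjusted p = 0.00025), with inputs at 231 and 162 CPM and pulldowns at 399 and 312 CPM. Its call was lost without siControl input replicate 2 (0.58, adjusted p = 0.072). DEPTOR was depleted by 1.76 on the log2 scale (-1.76, edgeR adjusted p = 8.8e-05), from 4.21 and 5.23 CPM to 1.70 and 1.04 CPM. RICTOR (0.17), TSC1 (0.44), RHEB (-0.41) and RPS6KB1 (-0.43) did not pass. The last 3 had adjusted p-values of 0.066, 0.061 and 0.054 and passed without either siLARP1 input, and 8 of 9 passed when only the siControl libraries were fitted. RHEB and RPS6KB1 also passed with DESeq2 (adjusted p = 0.031 and 0.042).

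The change of capture between the experiments was tested directly. With siControl the enrichment was higher than without siRNA for MTOR (2.75, SE 0.15, edgeR adjusted p = 4.2e-09), TSC2 (2.56, SE 0.25, adjusted p = 1.1e-06), RPTOR (2.14), RICTOR (2.01) and TSC1 (1.12), and lower for RHEB (-1.38). These are 6 of 9, where 50.2% of 26116 transcripts differed. DEPTOR (-0.65) and AKT1 (-0.25) did not pass with all libraries; DEPTOR passed without siControl pulldown replicate 1 (-1.02), and AKT1 without siControl input replicate 2 (-0.48). RPS6KB1 differed by -0.02. The 9 differences ran with the counted length, from RHEB with 175 codons to MTOR with 2540, with Spearman's rho = 0.98 over the 9 transcripts and 0.26 over all 26116. The 9 values come from the same libraries, and whether length has a part in the difference was not tested. Transfection and a difference between experiments cannot be told apart, since the labels do not say that libraries with and without siRNA were made together.

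**Figure D4:**
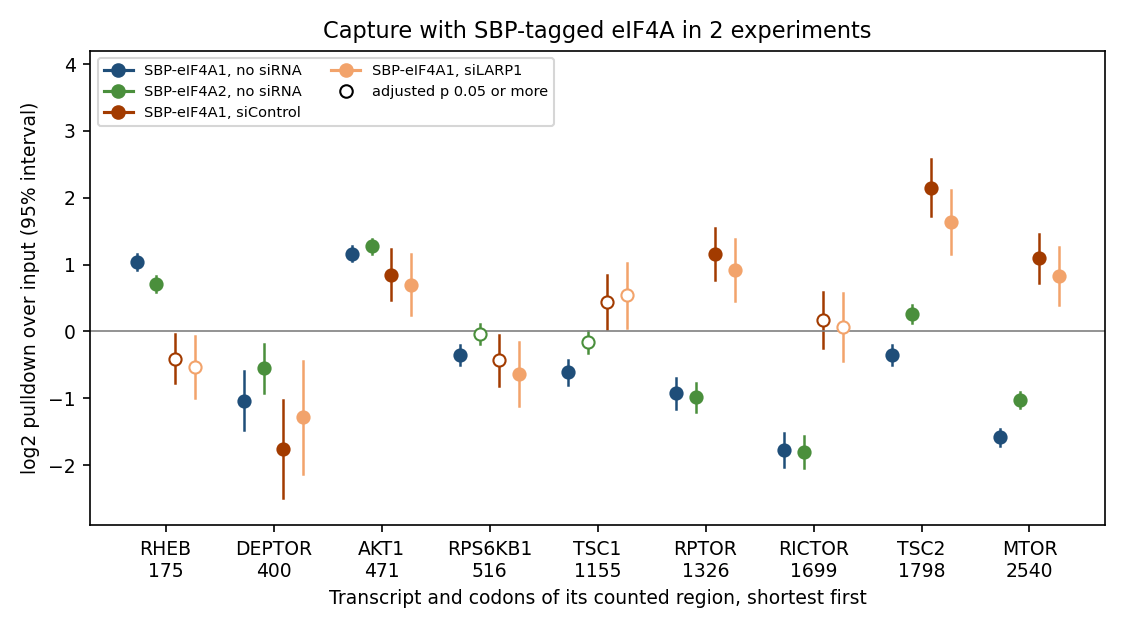
Log2 pulldown over input for the 9 transcripts, ordered by the codons of their counted region, in the 4 captures, with 95% intervals; open points did not reach an edgeR adjusted p under 0.05. Without siRNA the values of RICTOR and MTOR lie below -1, and with siControl those of RPTOR, TSC2 and MTOR lie above 1.

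Between the siLARP1 and siControl libraries no difference in these 9 transcripts was detected. In the inputs edgeR called 0 of 9 between siLARP1 and siControl, where 0.517% of transcripts passed; 0 had an unadjusted p under 0.05, and DESeq2 called 0 of the 8 with an adjusted p. TSC2, at 73.6 and 97.5 CPM with siLARP1, had the largest of the 9 differences (0.40, interval -0.02 to 0.82). In the siLARP1 capture, with 1 pulldown library whose spread was assumed to be like that of the other groups, 6 of 9 passed, where 41.9% of transcripts did. TSC2 was enriched by 1.64, RPTOR by 0.92, MTOR by 0.83 and AKT1 by 0.70, while DEPTOR (-1.28) and RPS6KB1 (-0.63) were depleted. The calls for AKT1, DEPTOR and RPS6KB1 were lost without siLARP1 input replicate 1 (0.61, -1.01 and -0.49), where TSC1 passed (0.85). DEPTOR was also lost with DESeq2 (adjusted p = 0.053) and RPS6KB1 without siControl input replicate 2 (adjusted p = 0.051). RHEB (-0.54) did not pass with all libraries but passed with DESeq2 (adjusted p = 0.030), without siControl pulldown replicate 1 and without siLARP1 input replicate 2.

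The difference in enrichment between siLARP1 and siControl was the test of the knockdown on capture. With edgeR 0 of 9 passed and 0 had an unadjusted p under 0.05; over all 26708 transcripts 0.0% passed, and DESeq2 called 0 of the 9. TSC2 was at 266 CPM in the siLARP1 pulldown against 298 and 278 CPM with siControl, and its enrichment differed by -0.52 with an interval of -1.17 to 0.14. MTOR was at 473 CPM against 471 and 522 CPM, and its enrichment differed by -0.27 with an interval of -0.84 to 0.31. For RPTOR the difference was -0.24 (interval -0.85 to 0.38). Intervals of this width do not show that the captures were alike.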

How the data were processed

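Ribosome profiling, RNA-seq and RNA pulldown libraries of HEK293 T-REx cells were analysed in the 19 groups that the sample labels give. The authors deposited 1 table of raw counts per Ensembl transcript and library, with a second column (other than counts) read as the length of the counted region. CASAVA 1.8, STAR 2.7.0a and the hg38 build are named in the submitters' processing notes; the counting tool, annotation release and strand setting are not given in the sources used here, so reads of overlapping antisense genes may be included. A read appears to have been counted in each transcript that contains it, since many transcripts had identical counts. Of 77343 distinct transcripts, 35500 were kept, 1 per locus: neighbours within 10 rows whose log counts (pseudocount 0.5) correlated at 0.9 or more were merged, and the 9 members were always retained. The members, the lists and the grouping of PP242 doses were chosen with earlier results of these data known. All 9 members are named. The design also listed other pathway genes, which were not analysed here because no table used here pairs transcript identifiers with symbols.

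The edgeR 4.0.16 quasi-likelihood test was used in R 4.3.3, with TMM scaling, a low-count filter (minimum count 10, minimum total 15) and Benjamini-Hochberg adjustment over all transcripts tested in a comparison; a call is an adjusted p under 0.05. All 9 members passed the filter in all 22 comparisons. CPM values are TMM-scaled within an assay or capture experiment, so levels are comparable only within it. Intervals cover 95%. The scripts were tested on simulated counts. Alternatives were DESeq2 1.42.0 and its size factors, no filter, all distinct transcripts, only the compared groups, single doses or a dose slope, a replicate block and leaving out each library.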

Additional observations from a re-analysis of the deposited data

Results flagged for a closer look

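For 5 transcripts the enrichment over input differed between the 2 tagged helicases by an interaction test in edgeR. Of all 26601 transcripts tested, 15.7% differed in this contrast. The difference, SBP-eIF4A1 minus SBP-eIF4A2 on the log2 scale, was -0.56 for MTOR, -0.61 for TSC2, -0.46 for TSC1, -0.31 for RPS6KB1 and 0.33 for RHEB. The input levels of TSC2, RHEB and RPS6KB1 differed between these cells as well, and their part in the result was not tested. A batch cannot be told apart from the helicase here.

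For 6 transcripts the enrichment with SBP-eIF4A1 differed between the experiment with control siRNA and the one without siRNA, by the same kind of test. Of all 26116 transcripts tested, 50.2% differed in this contrast. The difference was 2.75 for MTOR, 2.56 for TSC2, 2.14 for RPTOR, 2.01 for RICTOR, 1.12 for TSC1 and -1.38 for RHEB. For TSC2 it was 2.98 without siControl replicate 1 in input and pulldown and 2.27 without siControl replicate 2 in both, an alternative chosen after seeing the data. Transfection and experiment cannot be told apart here.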

How the results depend on the processing

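Most counts of members called stayed within 1.5 times of the main one, and no called value was called with the opposite sign. A count does not fix the member: with 1 µM alone the single call in naive cells was TSC2 (-0.51, adjusted p = 0.011) in place of RPTOR. With DESeq2's Wald test the count went from 4 to 2 for DMSO footprints of EIF4A1 KO against naive and against EIF4A2 KO cells, from 1 to 0 for PP242 in naive cells and from 2 to 1 in EIF4A2 KO cells. With the dose slope it fell to 0 in naive cells, in EIF4A2 KO cells and in the mean of genotypes. With 10 µM alone it was 0 in naive, 1 in EIF4A1 KO (TSC2) and 1 in EIF4A2 KO cells. For EIF4A1 KO it was also 1 (TSC2) with DESeq2-style size factors and with only the compared groups. The difference in drug response of EIF4A1 KO minus naive gave 1 (RICTOR) with those size factors and with 1 µM alone. EIF4A1 KO minus EIF4A2 KO gave 1 with only the compared groups (RPTOR) and with 10 µM alone (MTOR). The siControl capture gave 8 in place of 5 with only the compared groups. The causes were not tested.

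Leaving out 1 library gave 4 to 6 members called for mRNA, 1 to 4 for EIF4A1 KO footprints, 0 for EIF4A2 KO footprints, 2 to 4 between the knockouts and 0 to 2 for translation efficiency. For PP242 it gave 0 to 1 in naive, 0 to 1 in EIF4A1 KO, 0 to 2 in EIF4A2 KO cells and 2 to 3 in the mean; for its differences 0 to 1 (EIF4A1 KO minus naive), 0 (EIF4A2 KO minus naive), 0 to 1 (EIF4A1 KO minus EIF4A2 KO) and 0 between doses. Captures gave 9 with SBP-eIF4A1, 6 to 8 with SBP-eIF4A2, 2 to 6 for their difference, 2 to 5 between their inputs, 4 to 8 with siControl, 4 to 7 with siLARP1, 6 to 7 between experiments, and 0 for both siLARP1 contrasts.

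Replicate numbers do not pair libraries by the labels: same-numbered deviations correlated at -0.19 to 0.14 outside the siRNA experiment and at 0.59 between siControl input and pulldown. A replicate block gave 5 members for mRNA, 4 for EIF4A1 KO and 0 for EIF4A2 KO footprints, 3 between the knockouts (RICTOR lost, 0.32, adjusted p = 0.052) and 0 for translation efficiency. For the captures the block gave 9 with SBP-eIF4A1, 7 with SBP-eIF4A2, 5 for their difference, 4 between their inputs, 7 with siControl (RHEB -0.38, adjusted p = 0.045, and RPS6KB1 -0.41, adjusted p = 0.0497, gained), 6 between experiments and 0 between siLARP1 and siControl inputs. Crossed replicate blocks, added after seeing the data, gave 5 for mRNA, 1 in place of 0 for EIF4A2 KO (AKT1, 0.34, adjusted p = 0.045) and 0 for the siLARP1 inputs. No paired fit was possible for PP242 or the siLARP1 pulldown, since those libraries carry no shared numbers. The sign changed for 28 values called in neither setting, and for 93 when libraries were left out, all with a main log2 size of 0.39 or less. The 93 include the fits without a siControl replicate in both input and pulldown. Footprint depth limits DEPTOR most.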
